A study of Mus musculus with 4 samples.

Results

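The 10 genes described here are the embryonic globins and early blood factors of mouse embryoid bodies (EBs): the globins Hbb-bh1, Hbb-y, Hba-x, Hba-a1 and Hba-a2, the haem enzyme Alas2, and the transcription factors Gata1, Tal1, Runx1 and Lmo2. They were chosen by name, 10 of the 25209 genes in the files, and were read in every barcode with at least 500 unique molecular identifiers (UMIs, each one captured RNA molecule) and at least 500 genes. EBs are aggregates of differentiating embryonic stem cells (ESCs), here grown for 6 days from V6.5 mouse ESCs. There were 2 LSD1 KO libraries, from ESCs in which CRISPR/Cas9 removed the promoter and first exon of Lsd1 (gene symbol Kdm1a, a histone demethylase), and 2 WT libraries, all of cells dissociated with TrypLE. The study's methods call the libraries of a genotype biological replicates of the EBs. Whether they came from separate ESC clones is not stated, so p-values measure the spread between these libraries. EBs are a culture model without a circulation or formed organs.

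Red cells form first in the yolk sac, as primitive erythroid cells that use embryonic globins. Hbb-bh1 and Hbb-y encode the embryonic beta-type chains, Hba-x the zeta chain that pairs with them, and Hba-a1 and Hba-a2 the alpha chains that are used from the embryo to the adult. Tal1 and Lmo2 act together in the first blood and endothelial progenitors, in a complex that can also hold Gata1, the main activator of erythroid genes including globins and Alas2. Alas2 is the erythroid form of the first enzyme of haem synthesis. Runx1 is needed where definitive blood cells arise from endothelium.

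The libraries held 72285943 to 75406512 UMIs each. LSD1 KO libraries gave 5693 and 3045 kept cells with a median of 11402 and 20304 UMIs, and WT libraries 4393 and 6828 cells with a median of 11698 and 9211 UMIs. Kdm1a stood at 1.10 and 0.81 CPM (UMIs per library, scaled to a common total) in LSD1 KO libraries, against 221 and 246 CPM in WT libraries, which fits the labels. Cells were grouped into 15 clusters, of which cluster 12 was called endothelial-like because 8 of 10 endothelial markers were raised in it. No cluster could be called erythroid, and among the erythroid markers only Gfi1b was raised in cluster 12. It held 4 and 3 LSD1 KO cells, against 170 and 238 WT cells.

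The globins sit in a pair of clusters in the mouse genome (mm9). Hbb-bh1 (chr7:110990150-110991678) and Hbb-y (chr7:111000259-111001754) lie 8581 bases apart on the minus strand, and their coding sequences share 76.9% of aligned bases. Hba-x (chr11:32176400-32178116), Hba-a1 (chr11:32183511-32184465) and Hba-a2 (chr11:32196489-32197301) lie on the plus strand, with 5395 and 12024 bases between neighbours. The coding sequences of Hba-a1 and Hba-a2 share 428 of 429 bases, so reads may be split between them or dropped. Both their separate values and their sum are therefore uncertain. Gata1 (chrX:7536386-7555197) and Alas2 (chrX:146981918-147005181) are both on the X chromosome. Tal1 (chr4:114729031-114744360), Runx1 (chr16:92601712-92826311) and Lmo2 (chr2:103798143-103822035) are on chromosomes of their own. No other annotated gene overlapped a member on its own strand.

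The 250 bases before the start of 4 members are shown to compare embryonic globins with the main erythroid factor and the haem enzyme, by the short motifs that erythroid factors read. Sequences are from RefSeq (GRCm38.p6), in which 8 of the 10 members were matched, all but Hbb-bh1 and Lmo2. Capitals mark matches on either strand to the GATA motif (spelled AGATAA or else AGATAG, and likewise TGATAA or else TGATAG), to the CACCC motif that KLF factors bind (spelled CCACCC or else CCACACCC) and to CCAAT, and matches on the gene's own strand to a TATA-like box (spelled TATAAA or else CATAAA).
Hbb-y (chr7:103853208-103853457, minus strand): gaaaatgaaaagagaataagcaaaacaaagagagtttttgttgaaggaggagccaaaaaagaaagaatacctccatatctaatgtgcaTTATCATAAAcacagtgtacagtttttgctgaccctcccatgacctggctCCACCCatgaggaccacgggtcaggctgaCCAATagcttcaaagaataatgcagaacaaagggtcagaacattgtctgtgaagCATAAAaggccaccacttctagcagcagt
Hba-x (chr11:32276350-32276599, plus strand): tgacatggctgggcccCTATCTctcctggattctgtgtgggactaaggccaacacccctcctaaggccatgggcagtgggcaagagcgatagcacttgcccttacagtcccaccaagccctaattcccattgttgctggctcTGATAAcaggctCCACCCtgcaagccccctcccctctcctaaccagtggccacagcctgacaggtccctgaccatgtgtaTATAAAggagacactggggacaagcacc
Gata1 (chrX:7967911-7968160, minus strand): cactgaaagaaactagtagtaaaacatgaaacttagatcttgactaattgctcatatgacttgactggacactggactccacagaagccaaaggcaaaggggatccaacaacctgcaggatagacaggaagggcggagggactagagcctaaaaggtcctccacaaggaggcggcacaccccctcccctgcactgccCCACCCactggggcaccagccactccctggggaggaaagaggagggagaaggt
Alas2 (chrX:150547167-150547416, plus strand): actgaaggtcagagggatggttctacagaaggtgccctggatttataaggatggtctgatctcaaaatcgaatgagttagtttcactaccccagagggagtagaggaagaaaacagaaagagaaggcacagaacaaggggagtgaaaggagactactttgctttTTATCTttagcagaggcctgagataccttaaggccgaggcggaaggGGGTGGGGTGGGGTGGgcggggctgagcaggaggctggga
In Hbb-y the first capital stretch holds an overlapping GATA and CATAAA match, followed by CACCC at -112, CCAAT at -83 and a second CATAAA at -29 from the start. Hba-x had GATA matches at -234 and -108, CACCC at -96 and TATAAA at -28. Of 32851 RefSeq windows of this length, 26.5% held the GATA motif, 30.1% the CACCC motif, 33.8% CCAAT and 12.8% the TATA-like box, and 0.798% held GATA, CACCC and the TATA-like box together, as Hbb-y and Hba-x do. Alas2 had a GATA match at -86 and 3 overlapping CACCC matches between -40 and -30, whereas Gata1 had 1 CACCC match at -53. These are letter matches and not measured binding sites.

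Embryonic globin RNA was almost confined to the WT libraries. Hbb-bh1 had 0 and 0 UMIs in LSD1 KO libraries, against 1076 UMIs in 84 cells and 493 UMIs in 34 cells of WT libraries. Both WT libraries were far above both LSD1 KO libraries, and over each genotype Hbb-bh1 was at least 515-fold lower in LSD1 KO, taking 3 UMIs as the most that a count of 0 allows. Hba-x had 0 and 2 UMIs in LSD1 KO libraries, the 2 in separate cells, against 1245 UMIs in 36 cells and 207 UMIs in 10 cells of WT libraries. The ratio of WT over LSD1 KO was 715 for Hba-x (95% counting interval 198 to 5913), and the groups did not overlap. The interval treats pooled UMIs as independent, although 840 came from 1 cell, and leaves out the spread between cells and libraries. The ratio was 196 without the first WT library, which is outside the interval, and 302 without the single richest cell.

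UMIs of the other globins were rare in every library. Hbb-y had 3 and 2 UMIs in LSD1 KO libraries, against 32 and 1 UMIs in WT libraries, and the groups overlapped. Hba-a2 had 0 and 0 UMIs in LSD1 KO libraries, against 9 UMIs in 3 cells and 0 UMIs in WT libraries. Hba-a1 had a single UMI, in the first WT library. In WT, Hbb-bh1 made up 45.5% and 70.3% of all member globin UMIs and Hba-x 52.7% and 29.5%, so these embryonic chains gave nearly all of the globin UMIs counted. Reads of the nearly identical Hba-a1 and Hba-a2 may have been dropped, so these counts cannot tell how much alpha chain RNA the cells held.

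**Figure D1:**
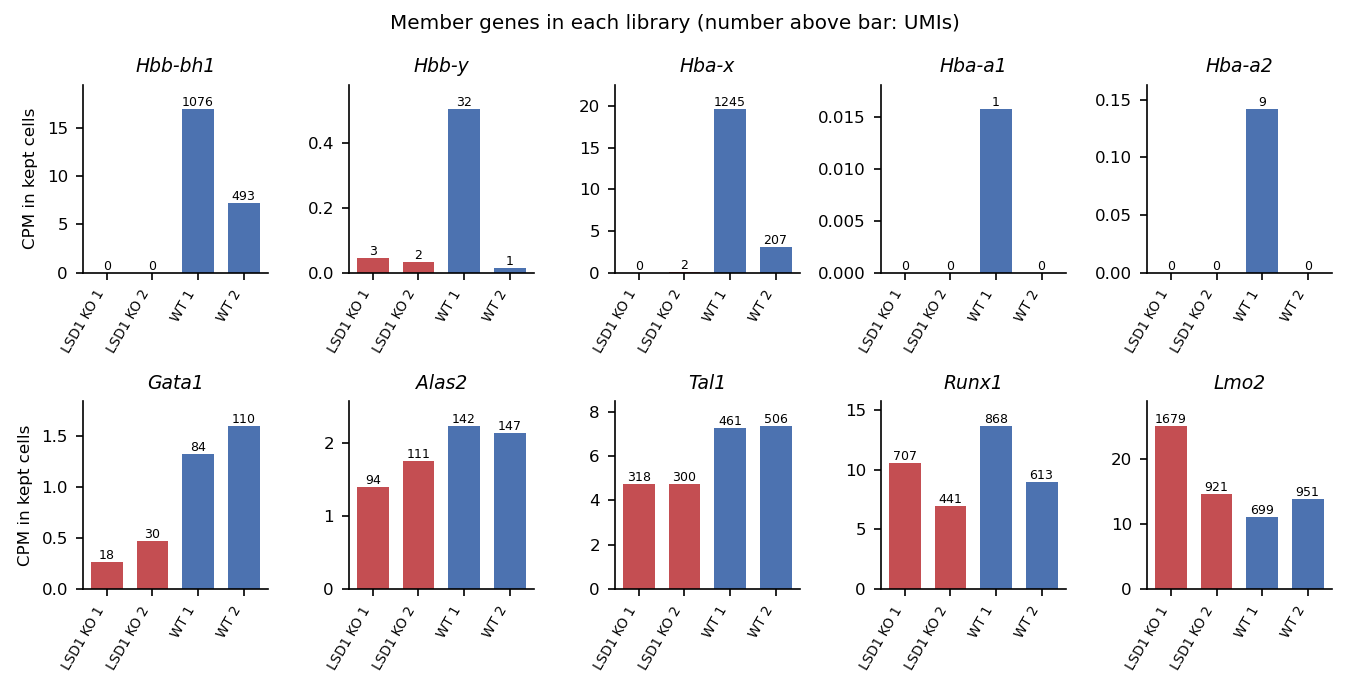
Level of each member gene in each library, in CPM over kept cells (vertical axis, linear and starting at 0), with the 2 LSD1 KO libraries in red on the left and the 2 WT libraries in blue on the right; the number above a bar is the UMI count. Hbb-bh1 and Hba-x stand at 0 to 2 UMIs in LSD1 KO libraries and at 207 to 1245 UMIs in WT libraries, whereas Lmo2 is highest in the first LSD1 KO library.

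Among the factors, Gata1 and Tal1 fell in LSD1 KO EBs while Lmo2, Runx1 and Alas2 did not pass the test. UMIs were summed per library and tested over all genes with edgeR's quasi-likelihood test, which called 22.6% of 16953 genes higher and 21.6% lower in LSD1 KO (Benjamini-Hochberg adjusted p under 0.05). Of the 10 members, 7 passed the filter on low counts, of which 4 were called lower and 0 higher. Hbb-y, Hba-a1 and Hba-a2 did not pass the filter. Hbb-bh1 and Hba-x passed it only through the WT libraries, so a member at these counts had to differ, and the count is given as a description. Such a sum alone cannot tell fewer positive cells from less RNA per cell. The numbers of cells are therefore given beside it.

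Hbb-bh1 had a fitted log2 fold change of -12.68 (SE 1.02, edgeR adjusted p = 0.0018) and Hba-x of -9.45 (SE 1.48, edgeR adjusted p = 0.00584). With 0 to 2 UMIs in LSD1 KO these fitted values depend on the prior count and are no estimate of size. Without the single WT cell richest in globin they were -12.06 and -8.20. Leaving out a library moved Hba-x between -12.57 (without the second LSD1 KO library) and -7.61 (without the first WT library) and Hbb-bh1 between -13.16 and -12.01.

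With library sizes adjusted by edgeR's TMM factors, as in this fit, Gata1 stood at 0.255 and 0.459 CPM in LSD1 KO libraries, from 18 UMIs in 17 cells and 30 UMIs in 28 cells, against 1.35 and 1.73 CPM in WT libraries, from 84 UMIs in 43 cells and 110 UMIs in 83 cells. Each LSD1 KO library was below each WT library. The log2 fold change was -2.11 (SE 0.375, edgeR adjusted p = 0.00841). Tal1 stood at 4.50 and 4.59 CPM in LSD1 KO libraries and at 7.41 and 7.94 CPM in WT libraries, again without overlap, with a log2 fold change of -0.76 (SE 0.148, edgeR adjusted p = 0.0115). The Tal1 UMIs came from 276 and 225 LSD1 KO cells and from 152 and 214 WT cells, at unequal depth.

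Alas2 stood at 1.33 and 1.70 CPM in LSD1 KO libraries and at 2.28 and 2.31 CPM in WT libraries (log2 fold change -0.60, SE 0.236, edgeR adjusted p = 0.0876). The libraries did not overlap but the test was not passed. Runx1 stood at 10.0 and 6.74 CPM in LSD1 KO libraries and at 14.0 and 9.62 CPM in WT libraries, with overlap (log2 fold change -0.49, SE 0.264, edgeR adjusted p = 0.178). Lmo2 stood at 23.7 and 14.1 CPM in LSD1 KO libraries and at 11.2 and 14.9 CPM in WT libraries, where the second library of each genotype was alike (log2 fold change 0.53, SE 0.278, edgeR adjusted p = 0.169). Without the second LSD1 KO library, Lmo2 was called higher, at 0.86 (edgeR adjusted p = 0.0206).

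Shares of cells with a UMI depend on depth, so cells were also thinned to 1000 UMIs each, leaving out 334 and 212 shallower LSD1 KO cells and 199 and 120 WT cells. After thinning, a Lmo2 UMI was left in 1.85% ± 0.714 of cells per LSD1 KO library and 1.05% ± 0.344 per WT library (SD, n = 2 each), and every LSD1 KO library was above every WT library. Unthinned, the Lmo2 shares were 17.6% ± 0.502 in LSD1 KO and 4.33% ± 0.483 in WT. Hbb-bh1, Hba-x, Gata1, Alas2 and Tal1 were below WT in both LSD1 KO libraries after thinning, and the other 4 members overlapped. The thinned counts were small, as for Gata1, left in 2 and 1 LSD1 KO cells against 3 and 20 WT cells. The share of all genes that separate in this way was not counted, so the number of members is only a description. Tal1 was seen in 0.398% ± 0.0356 of thinned LSD1 KO cells and 0.714% ± 0.103 of thinned WT cells. With 2 libraries against 2, an exact permutation test (two-sided) cannot go below p = 0.333, which was reached for those 6 members. The order of Tal1 and Alas2 rests on the depth chosen: thinned to 2000 UMIs both overlapped, and unthinned the Tal1 share was above WT in both LSD1 KO libraries.

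Globin RNA in WT EBs was concentrated in a handful of cells. Cells with at least 10 UMIs summed over the globin members, called globin-rich here, numbered 0 of 5693 and 0 of 3045 in LSD1 KO libraries, which, taking 3 cells as the most that a count of 0 allows, are shares of up to 0.0527% and 0.0985%. They numbered 15 of 4393 cells (0.341%, exact binomial 95% interval 0.191 to 0.563) and 13 of 6828 cells (0.190%, 0.101 to 0.325) in WT libraries. The two-sided exact binomial intervals of the LSD1 KO libraries, which follow another rule, reached 0.0648% and 0.121%, so the interval of the second LSD1 KO library overlapped only that of the second WT library. Intervals and limits cover counting error only. The mean difference in share, LSD1 KO minus WT, was -0.266 percentage points (exact permutation p = 0.333, the smallest that 2 libraries against 2 allow).

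These 28 cells held 93.7% and 92.0% of the globin UMIs in WT kept cells. The richest, in the first WT library, had 1391 globin UMIs of 33348 UMIs in all, 4.17% of its RNA, made of 840 Hba-x, 543 Hbb-bh1, 3 Hbb-y, 1 Hba-a1 and 4 Hba-a2 UMIs. It alone held 58.9% of the globin UMIs of its library and had at least 1 UMI of each of the 10 members. The richest cell of the second WT library had 152 Hbb-bh1 and 115 Hba-x UMIs. A further 3 cells passed 100 globin UMIs, with 264, 120 and 107, and the median over all 28 was 32 globin UMIs. In LSD1 KO libraries, 3 and 4 cells had any globin UMI, each a single one, of Hbb-y in 5 cells and Hba-x in the other 2, against 112 and 39 cells in WT libraries.

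All 28 globin-rich cells had Hbb-bh1, but only 15 had Hba-x. The 13 without Hba-x had 10 to 44 globin UMIs, nearly all Hbb-bh1, and all 13 were in the endothelial-like cluster. Of the 15 with Hba-x, which had 12 to 1391 globin UMIs, 9 were in that cluster. The 6 globin-rich cells outside it had a median of 3089.5 UMIs, against 13198.5 UMIs in the 22 inside it, and carried 0 Tal1 and 0 Runx1 UMIs. None of the 28 barcodes was also a kept barcode of a LSD1 KO library, although 38 kept barcodes were shared between pairs of libraries.

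**Figure D2:**
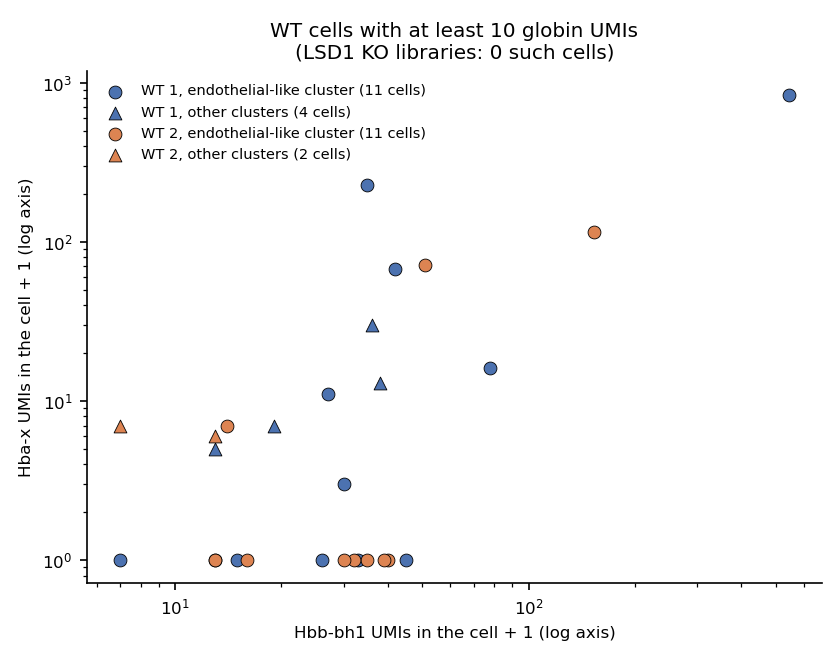
Hbb-bh1 UMIs (horizontal) against Hba-x UMIs (vertical) in each of the 28 globin-rich WT cells, with 1 UMI added to both and both axes logarithmic; colour gives the WT library, and circles are cells of the endothelial-like cluster. LSD1 KO libraries had 0 such cells; 13 cells lie on the lowest line, with Hbb-bh1 but without Hba-x, and the cell at the upper right has 840 Hba-x UMIs.

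Globin RNA was also found outside cells. In nearly empty barcodes of 1 to 100 UMIs, which mostly hold free RNA, Hbb-bh1 stood at 0 and 0 CPM in LSD1 KO libraries, against 26.4 and 7.88 CPM in WT libraries, and Hba-x at 0 and 0 CPM against 20.2 and 3.69 CPM. These levels are close to those of Hbb-bh1 over kept WT cells, 17.0 and 7.19 CPM, so single globin UMIs in WT cells cannot be told apart from free RNA. Of the WT cells with a globin UMI, 79 and 18 had a single one. In cluster 1, the endoderm-like cells that should lack globin, 1.01% and 0.275% of WT cells had a Hbb-bh1 UMI, at median depths of 19531 and 10541 UMIs.

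The globin-rich cells carried the other erythroid genes as well. The clustering used expression, and globin-rich cells were picked by globin, so what follows describes host cells and is no test. Gata1 was seen in 16 of 28 globin-rich cells (57.1%), 22 of 386 other endothelial-like WT cells (5.70%) and 88 of 10807 other WT cells (0.814%). At the level of RNA this was 79.0, 10.1 and 0.825 CPM. Alas2 followed the same order, in 46.4%, 6.99% and 1.87% of those cells. In LSD1 KO cells outside the endothelial-like cluster, a UMI of Gata1 was seen in 0.515% and of Alas2 in 2.27%. Median depths were 12763 UMIs in those LSD1 KO cells, and 12308.5, 11360 and 9579 UMIs in globin-rich, other endothelial-like and other WT cells.

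Tal1 and Lmo2 were seen in most globin-rich cells and in most other endothelial-like WT cells. Tal1 was seen in 71.4% of globin-rich cells, 75.1% of other endothelial-like WT cells and 0.518% of other WT cells. Lmo2 was seen in 21 of 28, 296 of 386 (76.7%) and 160 of 10807 (1.48%) of the same cells. Runx1 lay between the patterns, in 60.7%, 23.6% and 5.95%. The 28 globin-rich cells include the 6 outside the cluster, of which 0 had Tal1 and 1 had Lmo2. Of the 22 inside it, 20 had Tal1 and 20 had Lmo2. Those are higher shares than in the other endothelial-like WT cells, at median depths of 13198.5 and 11360 UMIs.

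Erythroid markers that are not members were raised in globin-rich cells. The erythroid factor Klf1 was seen in 14 of 28 of them, the erythropoietin receptor gene Epor in 46.4% and the repressor gene Gfi1b in 39.3%. Late genes were rarer, with the membrane transporter Slc4a1 in 3.57% and Ermap in 0% of the 28 cells. Some endothelial markers were less frequent than in other endothelial-like WT cells, with the junction protein Cdh5 in 21.4% against 54.7% and the VEGF receptor Flt1 in 10.7% against 68.7%. Tie1 stood at 47.4 CPM, from 3 cells, against 51.1 CPM. The 6 globin-rich cells outside the cluster had a median of 0 of 10 endothelial markers, against 1.5 in the 22 inside it. The pan-leukocyte gene Ptprc was not seen in the 28 cells. Ranked by the ratio to all WT cells that were not globin-rich, endothelial-like cells included, with 5 CPM added to both, the leading genes other than members included Cpne7 (18.2), Slc25a21 (14.9), Cited4 (14.7), Cbfa2t3 (14.6) and Klf1 (13.9). Against other endothelial-like WT cells alone the ratio was 11.6 for Cpne7, 22.2 for Slc25a21, 6.64 for Cited4 and 8.03 for Klf1, but 1.59 for Cbfa2t3, a corepressor that joins the Tal1 complex and is itself a leading gene of the cluster.

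**Figure D3:**
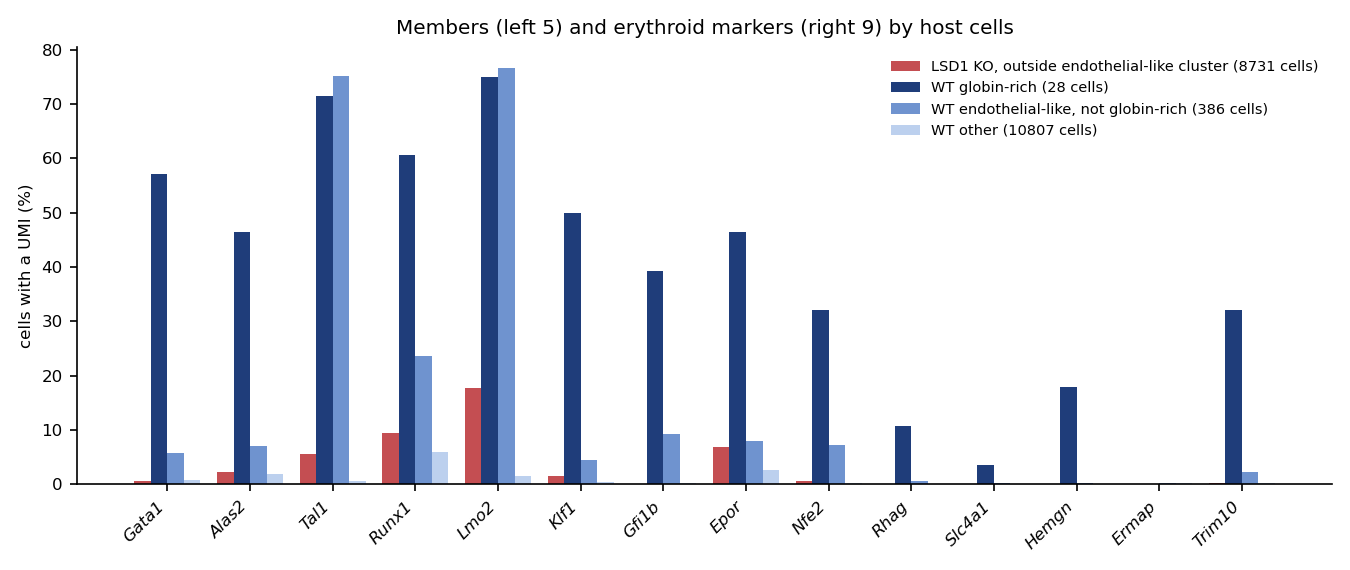
Share of cells with at least 1 UMI (vertical axis, percent, linear and starting at 0) of Gata1, Alas2, Tal1, Runx1 and Lmo2 and of 9 erythroid markers, in LSD1 KO cells outside the endothelial-like cluster (8731 cells), globin-rich WT cells (28), other endothelial-like WT cells (386) and other WT cells (10807). Gata1 stands at 57.1% in globin-rich cells and 5.70% in other endothelial-like cells, whereas Tal1 and Lmo2 stand above 70% in both.

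At unequal depth and unthinned, 2 or more members were found in 283 of 5693 and 219 of 3045 LSD1 KO cells (4.97% and 7.19%), against 166 of 4393 and 201 of 6828 WT cells (3.78% and 2.94%). Cells with many members were mainly WT cells. UMIs of 4 or more members were found in 0 and 1 LSD1 KO cells, against 28 and 28 WT cells, of which 25 and 27 were endothelial-like. Gata1, Tal1 and Lmo2 together were found in 0 and 2 LSD1 KO cells, against 15 and 14 WT cells, of which 11 and 9 also had a globin UMI. With every cell thinned to 1000 UMIs the order at 2 or more members turned, and 0.0187% and 0.0706% of LSD1 KO cells held them, against 0.668% and 0.388% of WT cells, without overlap.

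Tal1 and Lmo2 were seen together in 97 and 81 LSD1 KO cells, where 49.5 and 38.8 would meet if the genes were independent. In WT they met in 106 and 159 cells, where 7.09 and 8.52 would meet. Within the WT endothelial-like cluster they met in 101 and 145 cells, close to the 94.1 and 146 of independence. Depth differs between cells and adds to every such excess, and its part was not tested.

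The endothelial-like cluster held most Tal1 and Lmo2 RNA of WT EBs, and with it set aside Tal1 was higher in LSD1 KO instead of lower, and Lmo2, which was not called over all cells, was called higher in LSD1 KO. For this comparison the clustering was repeated with the members left out of the genes that defined it, and left out 4 and 3 LSD1 KO cells and 164 and 233 WT cells. These WT cells held 88.3% and 87.0% of the Tal1 UMIs and 84.0% and 84.8% of the Lmo2 UMIs of their libraries. They held 39.1% and 32.3% of the Runx1 UMIs and 61.9% and 32.7% of the Gata1 UMIs. Within them Lmo2 stood at 181 and 326 CPM, Tal1 at 126 and 178 CPM and Runx1 at 105 and 80.0 CPM. The 7 LSD1 KO cells of the cluster included 7 with Tal1 and 5 with Lmo2, and 0 with Gata1 or a globin UMI.

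In the remaining cells, Lmo2 and Tal1 were higher in LSD1 KO. On library totals without TMM factors, Lmo2 stood at 25.03 and 14.46 CPM in LSD1 KO libraries, against 1.86 and 2.19 CPM in WT libraries, with no overlap. Unthinned and at unequal depth, a Lmo2 UMI was seen in 1020 and 522 LSD1 KO cells (17.9% and 17.2%), against 81 and 85 WT cells (1.92% and 1.29%). Thinned to 1000 UMIs, the shares were 2.35% and 1.34% against 0.273% and 0.247%, outside cluster 12 of the clustering that included the members. The log2 fold change was 3.14 (SE 0.302, edgeR adjusted p = 0.00136). Tal1 stood at 4.63 and 4.64 CPM in LSD1 KO libraries, against 0.898 and 0.998 CPM in WT libraries (log2 fold change 2.15, SE 0.212, edgeR adjusted p = 0.00145). In this fit 22.8% of 16899 genes were called higher and 21.8% lower, and of the 7 members tested 2 were higher and 2 lower, the lower ones being Hbb-bh1 and Hba-x, which again passed the filter only through the WT libraries. A cluster made of genes that move with Tal1 and Lmo2 was taken almost wholly from WT, which by itself lowers their WT level. Leaving out instead every cell with 2 or more of 10 endothelial markers (1711 and 1323 LSD1 KO cells, 871 and 812 WT cells), Lmo2 remained higher at 2.38 (edgeR adjusted p = 0.00112) and Tal1 at 0.86 (edgeR adjusted p = 0.0243).

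Free RNA bears on these low levels. In nearly empty barcodes Lmo2 stood at 17.8 and 9.49 CPM in LSD1 KO libraries and 11.6 and 12.1 CPM in WT libraries. Tal1 stood there at 4.34 and 4.29 CPM in LSD1 KO libraries and 3.30 and 3.20 CPM in WT libraries. In LSD1 KO these levels are near those of the remaining cells, whereas in WT they are above them. Unthinned, 3 or more Lmo2 UMIs per cell were found in 145 and 81 LSD1 KO cells, against 5 and 17 WT cells, outside the cluster. The highest cells had 14 and 15 Lmo2 UMIs in LSD1 KO and 10 and 10 in WT. Tal1 did not separate the genotypes in this way. At 3 or more Tal1 UMIs there were 4 and 11 LSD1 KO cells (0.0703% and 0.362%), against 4 and 9 WT cells (0.0946% and 0.136%). The highest cells had 5 and 11 Tal1 UMIs in LSD1 KO and 15 and 6 in WT.

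Outside the cluster the globins were seen at far lower counts, and their fitted values are given as descriptions for the reason stated above. Hbb-bh1 had 0 and 0 UMIs in LSD1 KO libraries, against 170 and 27 UMIs in WT libraries (log2 fold change -9.74, SE 2.01, edgeR adjusted p = 0.0187). Hba-x had 0 and 2 UMIs in LSD1 KO libraries, against 83 and 16 UMIs in WT libraries (log2 fold change -5.65, SE 1.31, edgeR adjusted p = 0.0187), and lost its call without the first WT library, at -3.98 (edgeR adjusted p = 0.0545). Gata1 had 18 and 30 UMIs in LSD1 KO libraries, against 32 and 74 UMIs in WT libraries, and did not pass the test (log2 fold change -1.30, SE 0.514, edgeR adjusted p = 0.0886). It was called lower without the first WT library, at -1.76 (edgeR adjusted p = 0.0487), and when cells were left out by markers, at -2.18 (edgeR adjusted p = 0.00355). Alas2 (-0.21, edgeR adjusted p = 0.523) and Runx1 (0.09, edgeR adjusted p = 0.794) did not pass.

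**Figure D4:**
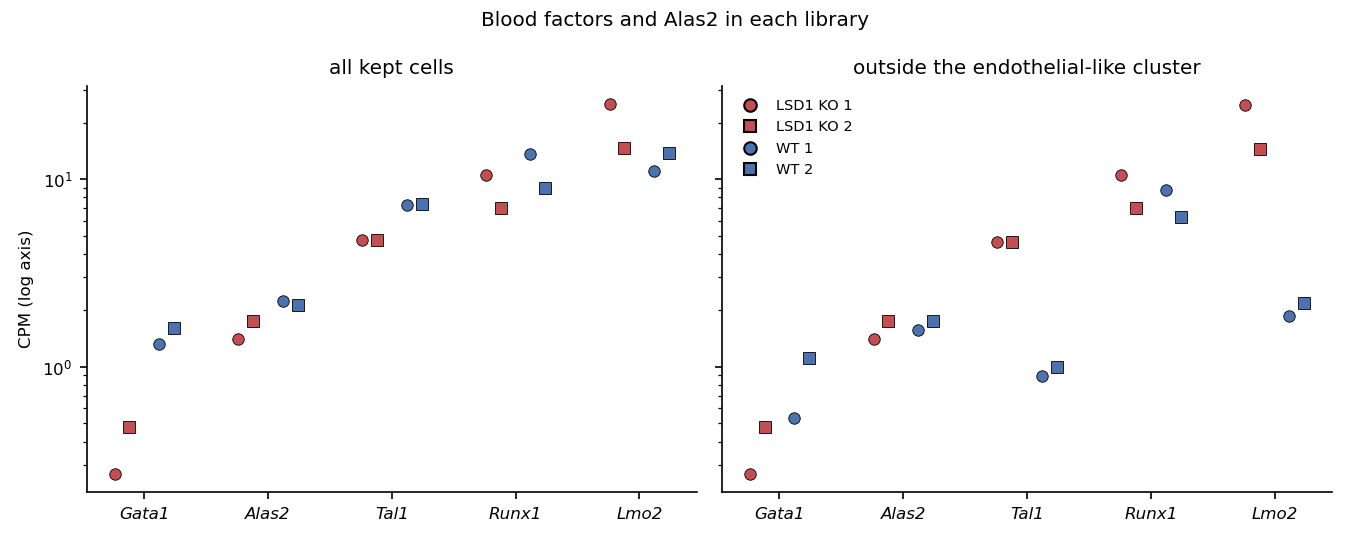
Level of Gata1, Alas2, Tal1, Runx1 and Lmo2 in each library in CPM (logarithmic vertical axis), over all kept cells (left) and outside the endothelial-like cluster (right), LSD1 KO libraries in red left of WT libraries in blue, with circles for replicate 1 and squares for replicate 2. Tal1 is lower in LSD1 KO over all cells and higher outside the cluster, at 4.63 and 4.64 CPM against 0.898 and 0.998 CPM in WT.

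Among LSD1 KO clusters with at least 50 cells in a library, Lmo2 and Runx1 differed beyond their counting intervals, and Tal1 did so when clusters were divided more finely. Of the 10 members, 8 were among the genes that defined these clusters, so the differences are descriptions and no test. No clustering without the members was made at the finer resolution. The few endothelial-like LSD1 KO cells stood above all of these clusters, at 73.7 and 119 CPM of Lmo2 and 197 and 86.2 CPM of Tal1, from 4 and 3 cells. In cluster 5, led by the primitive streak genes Mixl1, Mesp1 and T, Lmo2 stood at 31.9 CPM (95% Poisson interval 29.0 to 34.9) and 30.9 CPM (24.0 to 39.3) in the 2 libraries. In cluster 7, called ESC-like from 9 of 10 markers, it stood at 8.97 CPM (6.81 to 11.6) and 9.55 CPM (8.04 to 11.3). The intervals of these clusters do not overlap in either library, and cover counting error only. With the members left out of the clustering, Lmo2 stood at 31.8 CPM in the Mixl1-led and 9.31 CPM in the ESC-like cluster, over both LSD1 KO libraries. In cluster 0, led by Tagln and holding 48.3% and 48.6% of LSD1 KO cells, Lmo2 stood at 25.7 and 15.7 CPM. Tal1 stood at 5.07 and 4.95 CPM in cluster 0, 3.71 and 3.23 CPM in cluster 5 and 4.33 and 4.03 CPM in cluster 7, with overlapping intervals in each library.

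Cluster 0 raised 6 of 10 ectoderm markers but was mixed. At a finer resolution of 0.8, 55.7% and 72.6% of its LSD1 KO cells fell into a cluster led by Pim2 and Kcnj3, which raised 4 of 10 ESC markers. A further 39.9% and 17.0% fell into a cluster led by the contractile genes Tagln, Cnn1 and Actc1, which raised 4 of 10 ectoderm markers and held 1109 and 252 LSD1 KO cells in all. Both are called here by their leading genes. Lmo2 stood in the Tagln-led cells at 37.2 CPM (34.5 to 40.2) and 28.7 CPM (24.9 to 32.8), against 16.4 and 13.0 CPM in the Pim2-led cells, and its intervals overlapped those of the Mixl1-led cluster, at 32.5 and 32.0 CPM. Tal1 stood in the Tagln-led cells at 7.04 CPM (5.87 to 8.39) and 10.9 CPM (8.65 to 13.5), against 3.53 and 3.605 CPM in the Pim2-led and 3.63 and 3.03 CPM in the Mixl1-led cells, above both without overlap of intervals in either library.

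Runx1 stood in the Tagln-led cells at 18.1 and 23.5 CPM, against 12.9 and 10.4 CPM in the Mixl1-led, 4.17 and 4.31 CPM in the Pim2-led and 6.497 and 3.70 CPM in the Dppa5a-led ESC-like cells. At the coarser resolution the Mixl1-led cluster had instead been above cluster 0 for Runx1, at 13.2 and 11.1 CPM against 10.2 and 7.74 CPM, so which of these clusters is the higher depends on the resolution. The shallow cluster 4 stood higher than both at the coarser resolution, at 20.6 and 16.8 CPM from 33 and 23 UMIs. Gata1 was instead higher in the Dppa5a-led ESC-like cells, at 0.928 and 1.34 CPM from 6 and 20 UMIs in cluster 7, against 0.0971 and 0.164 CPM from 4 and 7 UMIs in cluster 0. In WT EBs, Runx1 had a host besides the endothelial-like cells. Cluster 14, which was left unnamed and is led by S100a6, Cryab and Acta1, stood at 30.8 and 30.1 CPM of Runx1, against 9.07 and 8.15 CPM in the endoderm-like cluster 1. Gata1 outside endothelial-like cells was mostly in cluster 1, with 19 and 53 UMIs in 16 and 44 cells.

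**Figure D5:**
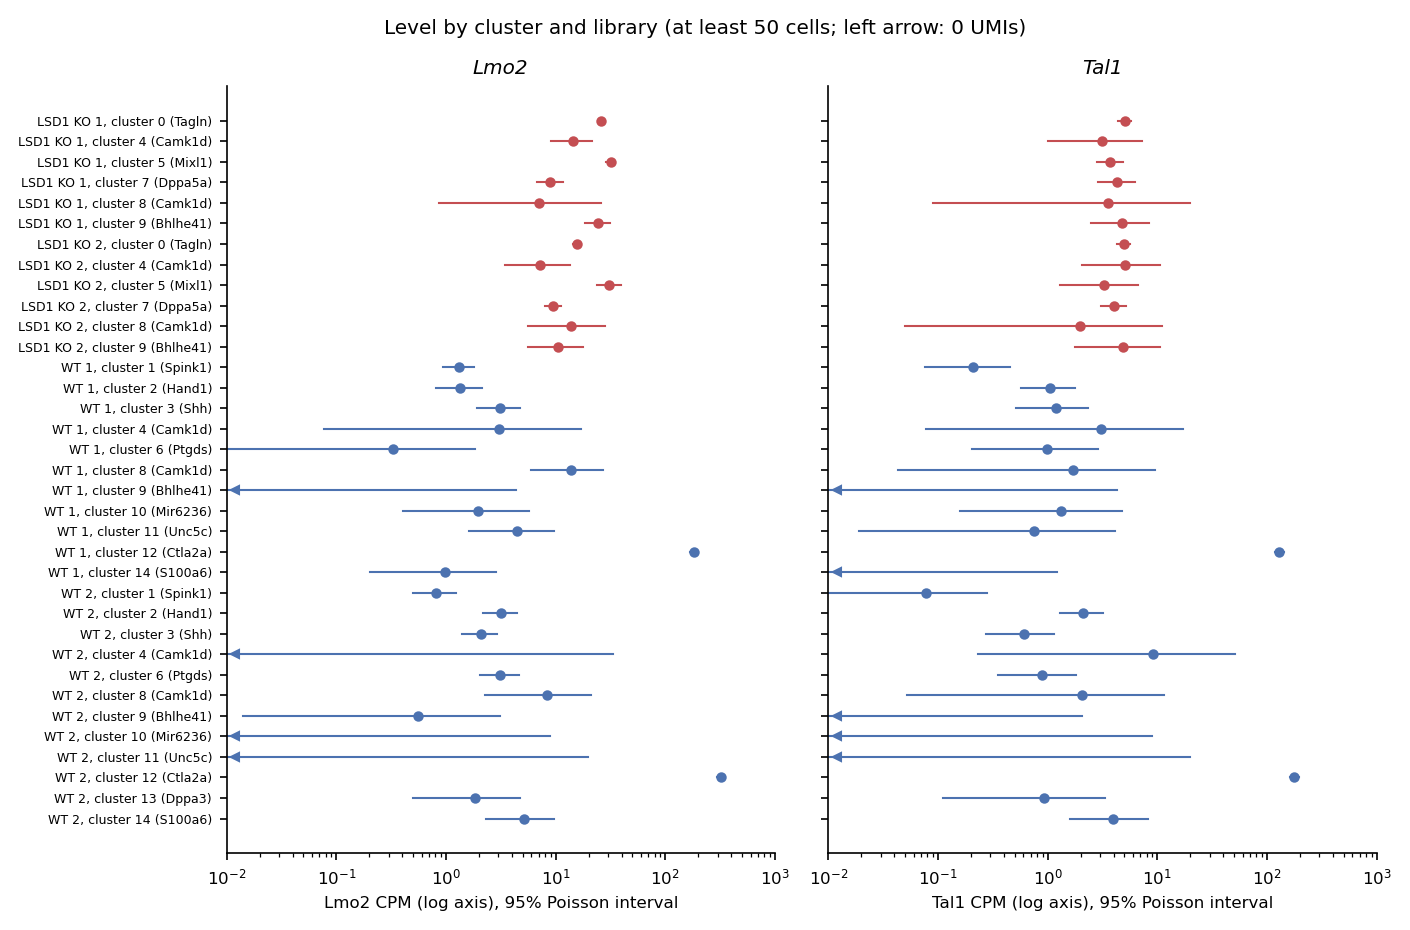
Lmo2 (left) and Tal1 (right) in CPM (logarithmic horizontal axis) in every cluster and library with at least 50 cells, LSD1 KO libraries in red above WT libraries in blue, with each cluster's leading gene in brackets; lines are 95% Poisson intervals and left arrows mark 0 UMIs. Both genes stand above 100 CPM in cluster 12 of the WT libraries, and Lmo2 stands near 30 CPM in cluster 5 of the LSD1 KO libraries.

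Over the 35 cluster-by-library units of at least 50 cells, the genes whose log2(CPM + 1) was most like that of the summed globins included Gfi1b (Pearson r = 0.770), Myct1 (0.756), Esam (0.753) and Lyl1 (0.751). For Gata1 they were Arhgap25 (0.857), Myct1 (0.834), Gimap4 (0.834), Gfi1b (0.825) and Nos3 (0.824), and for Lmo2 Cnrip1 (0.880), Exoc3l (0.825), Gng11 (0.806), Sting1 (0.801) and Rhoj (0.787). Among members, Tal1 and Lmo2 were most alike (0.828), followed by Gata1 and Tal1 (0.673). Units share libraries and depth, and these values are descriptions across units. Gfi1b had a log2 fold change of -4.12 (edgeR adjusted p = 0.0042) between LSD1 KO and WT EBs. Klf1, seen in many globin-rich cells, was not called (log2 fold change 0.26, SE 0.267, edgeR adjusted p = 0.456). It stood at 1.05 and 0.994 CPM in LSD1 KO libraries and at 0.932 and 0.769 CPM in WT libraries.

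Other blood genes were read as lists, each beside the 22.6% of all genes called higher and 21.6% called lower and a median log2 fold change of -0.00 over all genes. Of 29 erythroid and haematopoietic regulators tested, 4 were higher and 15 lower, with a median of -0.50, and among the most abundant the E proteins Tcf12 (-0.37, edgeR adjusted p = 0.0294) and Tcf3 (-0.38, edgeR adjusted p = 0.0129), partners of Tal1, fell. Cbfa2t3, Gata2, Gfi1b, Ldb1 and Lyl1 were among those that fell, and Ikzf1, Myb, Bcl11a and Runx3 rose. Of 20 erythroid membrane, receptor and late genes, 2 were higher and 8 lower (median -0.40), including the antioxidant enzyme Prdx2 (-0.55) and the membrane skeleton gene Epb41 (-0.69). Of 16 haemangioblast and endothelial genes, 3 were higher and 9 lower (median -1.48), including Kdr, the VEGF receptor of the earliest blood progenitors (-3.31), and Kit, the stem cell factor receptor (-2.06). The more abundant Egfl7 fell less (-0.38, edgeR adjusted p = 0.0295), and Flt1 was not called (-0.26, edgeR adjusted p = 0.374). Cldn5, Eng and Plvap were the higher ones.

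Haem genes did not move one way. Of 22 haem synthesis and iron genes, 5 were higher and 4 lower (median 0.09), with Hmox1, which breaks haem down, higher at 2.32 (edgeR adjusted p = 0.000681) and Cpox and Ppox, late enzymes of haem synthesis, lower. Of 5 other globins tested, Hbq1a and Hbq1b were higher and the muscle globin gene Mb was lower (-2.12). The adult beta globin genes Hbb-b1, Hbb-b2, Hbb-bs and Hbb-bt had no UMI in the kept cells of any library and were not tested. Whether reads of these genes were dropped, as may be so for Hba-a1 and Hba-a2, was not tested. Of 6 megakaryocyte genes 0 were higher and 2 lower, and of 7 myeloid genes 2 were higher and 2 lower. Of 9 yolk sac visceral endoderm genes 2 were higher and 5 lower (median -2.77), led by Ttr (-10.84). Hbb-bh0 and Ahsp were not analysed here.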

How the data were processed

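The authors made single-cell 3-prime libraries on a 10x Chromium Controller and deposited UMI count matrices of all barcodes; the submitters' processing notes name Cell Ranger 7.1.0, Seurat 4.3.0 and mm9. This version of Cell Ranger counts intronic reads by default and assigns reads by strand. The deposited counts are not normalized. A barcode was used as a cell from 500 UMIs and 500 genes on. No doublet caller was run, and leaving out the 5% of cells with most UMIs was tried instead. Counts were summed per library and tested with edgeR 4.0.16 (R 4.3.3) by the quasi-likelihood test with TMM factors and filterByExpr, LSD1 KO over WT, on 4 libraries without covariates. The design has 2 residual degrees of freedom. Cells were clustered with Seurat 5.3.0 (2000 variable genes per library, 30 principal components, Louvain resolution 0.4). A cluster was named when at least 3 markers of a class were raised 2-fold and seen in 10% of its cells. That class also had to have more raised markers than any other, and no other class more markers among the leading genes. Shallow clusters without a marker of the class among their leading genes were left unnamed. The fit was tested on simulated data. Within a genotype, the libraries' counts were further apart than counting error (chi-square over its degrees of freedom 29.3 in LSD1 KO and 66.9 in WT), and each was counted as 1 replicate. The genes named beside the members were the 4 most abundant tested in each list, the 5 most like the globins, Gata1 or Lmo2, and the leading genes of globin-rich cells; some of these genes are not reported here, and further names were chosen after their values were seen. The members and lists, and the fit outside the endothelial-like cluster, were chosen with earlier results of these data known.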

Additional observations from a re-analysis of the deposited data

Results flagged for a closer look

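Globin RNA was also present in barcodes that were not kept as cells. LSD1 KO libraries had 2 and 0 globin UMIs there, against 869 and 53 UMIs in WT libraries. In the first WT library these were 26.9% of all its globin UMIs, at 86.6 CPM in barcodes not kept against 37.3 CPM in kept cells, and were spread over 792 barcodes. In the second WT library they were 7.03%, at 11.2 against 10.2 CPM, over 52 barcodes. In the first WT library 756 of the 869 UMIs were in barcodes with more than 100 UMIs, and the richest of these had 35 globin UMIs of 880 UMIs from 429 genes, fewer genes than the minimum. How much of this signal is free RNA and how much is small cells was not tested.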

How the results depend on the processing

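Most values kept their direction and their side of the threshold. Over all genes, 3839 were higher and 3661 lower; leaving out each library gave 2704 to 3415 higher and 2295 to 3251 lower, and library totals without TMM gave 4839 higher and 2583 lower, with the median of all genes moved to 0.13. No label or method says that a replicate number marks a shared batch, and the deviations of same-numbered libraries correlated at 0.157, a single value with 2 libraries per genotype; with the replicate block 4118 genes were higher and 3979 lower, Runx1 was called lower (-0.50, edgeR adjusted p = 0.0256), and Gata1 outside the endothelial-like cluster was called lower (-1.26, edgeR adjusted p = 0.0277), while no other member changed its call. Without a library in turn, Lmo2 ranged over 0.11 to 0.86 and Hba-x, Gata1 and Runx1 outside the cluster over -8.73 to -3.98, -1.77 to -0.61 and -0.23 to 0.35. When cells were left out by markers, Gata1 was called lower (-2.18) and Runx1 turned to -0.23. The order of thinned shares, 1 member above WT and 5 below, became 3 and 3 without thinning, 1 and 3 at 2000 UMIs and 0 and 3 at 2 or more UMIs of a member; without a library in turn it was 1 to 2 above and 5 to 8 below. For these orders the share over all genes was not counted. The share of WT globin UMIs in the endothelial-like cluster was 90.3%, and 89.3% to 93.9% in single WT libraries. At resolution 0.8 the log2 ratio of the Mixl1-led over the Tagln-led LSD1 KO cluster was -0.10 for Lmo2, -0.64 for Runx1 and -1.20 for Tal1, against 0.62, 0.53 and -0.46 at 0.4, a comparison added after seeing the data. Hbb-y entered the test when 1 library was left out in 3 of 4 ways and was called lower without the second WT library (edgeR adjusted p = 0.0132). The cause of these changes was not tested. The settings outside the cluster were chosen after seeing the data. Limits are the 2 libraries per genotype, the 28 globin-rich cells, free globin RNA in WT, and clusters that share few cells between genotypes.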
